A study of Mus musculus with 4 samples.

Results

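The AP-1 family transcription factors were examined in RNA-seq libraries of thymocytes that carry both CD4 and CD8 and the activation marker CD69 (CD69+DP cells), the stage at which double-positive cells have received a T-cell receptor (TCR) signal for positive selection. The members were fixed by name as genes of the Jun, Fos and Batf families (Jun, Junb, Jund, Fos, Fosb, Fosl1, Fosl2, Batf and Batf3) together with Bach2. All 10 were found among the 24421 genes listed. The cells were FACS sorted from the thymus of C57BL/6 mice aged 6 weeks, with 2 control samples and 2 Foxa1/2cKO samples, each sorted from different mice. Controls were Foxa1fl/flFoxa2fl/fl without Cre, and Foxa1/2cKO samples were Foxa1fl/flFoxa2fl/fl with the CD4Cre transgene, so the floxed alleles were shared by both groups. The Cre is driven by Cd4 regulatory sequence, which is active from around the double-positive stage and in the T cells that follow, and the controls did not carry the transgene. Whether a sample pooled several mice was not given in the sources used here. The comparison asked whether loss of the forkhead factors Foxa1 and Foxa2 in developing T cells altered the RNA of these genes at this stage.

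AP-1 is a family of basic leucine zipper (bZIP) proteins that bind DNA in pairs. Jun proteins pair with each other or with Fos proteins, whereas Fos proteins need a Jun partner. In T cells the TCR drives AP-1 through MAP kinases, which raise transcription of Fos and Jun genes and phosphorylate Jun proteins, and AP-1 then acts with NFAT at many activation genes. Batf and Batf3 pair with Jun proteins and act with Irf4 or Irf8, and Bach2 is a bZIP repressor that binds AP-1-like sites and restrains lymphocyte activation programmes.

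Values were FPKM, which divide a gene's reads by its length and by the depth of the sample, so levels of different genes can be compared. Foxa1 and Foxa2 had no reads in any of the 4 samples and were listed at 0, also in controls, which left the genotype labels without a check from the targeted genes. The reads behind the values ranged from 10488639 to 14609160 per sample. Foxa1/2cKO 2 stood apart from the other samples. On the first principal component of the tested genes, which held 65.1% of the variance, it lay at 28.4 and the other 3 samples between -11.0 and -7.37. The SD of the log2 differences between the Foxa1/2cKO samples was 0.40, against 0.20 between the controls. Member values that rest on this sample are therefore given with and without it. Of 11 fixed markers of double-positive cells (Cd4, Cd8a, Rag1, Cd69 and others), 11 were tested. Their summed level was 3803 and 3897 FPKM in controls and 3854 and 4860 FPKM in Foxa1/2cKO.

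The promoters of 9 of the 10 members were matched by symbol to RefSeq sequence on GRCm38.p6, and the 250 bases before the start that the promoter table gives for each were searched on both strands for AP-1 and cAMP-response (CRE) type sites and for forkhead core sites, the kind that Foxa proteins bind. The AP-1 site TGACTCA was in none of the 9 windows and in 4.46% of 32851 mouse promoter windows of the same length. The full CRE site TGACGTCA was likewise in none of the 9 and in 1.55% of all promoters. Jun held the Jun-type variant TGACATCA, which 2.93% of promoters held. Fos and Batf held the shorter TGACGT, which is part of TGACGTCA and was in 6.47% of promoters. Of the forkhead cores, TGTTTAC was in the Junb window alone among the 9 and in 3.17% of all promoters, and TGTTTGC was in none of the 9 and in 4.30% of all promoters. The windows that held a searched motif are shown because they place it relative to the start, 5′ to 3′ along the gene's strand, with the motif in capitals.

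Jun, minus strand, chr4:95052223-95052472: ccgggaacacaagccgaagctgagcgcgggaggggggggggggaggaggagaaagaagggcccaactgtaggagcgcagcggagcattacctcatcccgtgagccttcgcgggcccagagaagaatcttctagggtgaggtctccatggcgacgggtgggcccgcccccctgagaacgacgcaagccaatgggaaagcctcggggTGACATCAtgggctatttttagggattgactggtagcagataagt

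Junb, minus strand, chr8:84978749-84978998: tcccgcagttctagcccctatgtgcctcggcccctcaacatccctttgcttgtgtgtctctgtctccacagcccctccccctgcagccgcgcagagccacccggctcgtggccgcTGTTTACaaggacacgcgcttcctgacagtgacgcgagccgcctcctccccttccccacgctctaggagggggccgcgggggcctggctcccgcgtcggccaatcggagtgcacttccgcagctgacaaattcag

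Fos, plus strand, chr12:85473640-85473889: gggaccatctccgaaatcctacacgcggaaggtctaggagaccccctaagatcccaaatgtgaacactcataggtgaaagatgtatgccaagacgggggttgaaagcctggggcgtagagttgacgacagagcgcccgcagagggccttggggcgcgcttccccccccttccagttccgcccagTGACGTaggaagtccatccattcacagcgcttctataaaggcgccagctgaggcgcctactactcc

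Batf, plus strand, chr12:85686470-85686719: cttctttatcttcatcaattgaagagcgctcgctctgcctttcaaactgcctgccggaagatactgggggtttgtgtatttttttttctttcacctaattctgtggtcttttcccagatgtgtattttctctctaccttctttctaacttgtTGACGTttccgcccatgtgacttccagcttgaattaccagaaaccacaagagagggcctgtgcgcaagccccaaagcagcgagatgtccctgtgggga

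In the Jun window the first base of the motif lay 45 bases before the start. The forkhead core of Junb began 135 bases before the start, and TGACGT began 66 bases before the start of Fos and 98 before that of Batf. The table's start of Bach2 lies inside its annotated gene span, and the Fosb window overlaps the end of its span, so these windows do not precede the outermost start. The matches describe the letters in the windows only, and no binding was measured here.

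The members differed in level far more than the groups did. Jund, the most abundant, had a mean of 113 FPKM over the 4 samples, above 97.8% of listed genes, and Junb followed at 56.8 FPKM, above 94.4%. Bach2 and Batf were next at 22.6 and 16.6 FPKM. Fos, Jun, Fosl2 and Fosb were low, with means of 3.42, 3.37, 2.79 and 1.94 FPKM, above 59.6% of listed genes for Fosb and up to 62.9% for Fos. Batf3 and Fosl1 were near the limit of detection at 0.252 and 0.0922 FPKM. The order of Jund, Junb, and the pair of Bach2 and Batf was the same in every sample at this coarse grain, whereas Bach2 lay above Batf in 3 samples and below it in Foxa1/2cKO 2. Fos, Jun and Fosl2 could not be ordered beyond their spread, because Jun alone ranged from 1.75 to 5.52 FPKM and so spanned every value of Fos and all but 1 value of Fosl2.

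**Figure D1:**
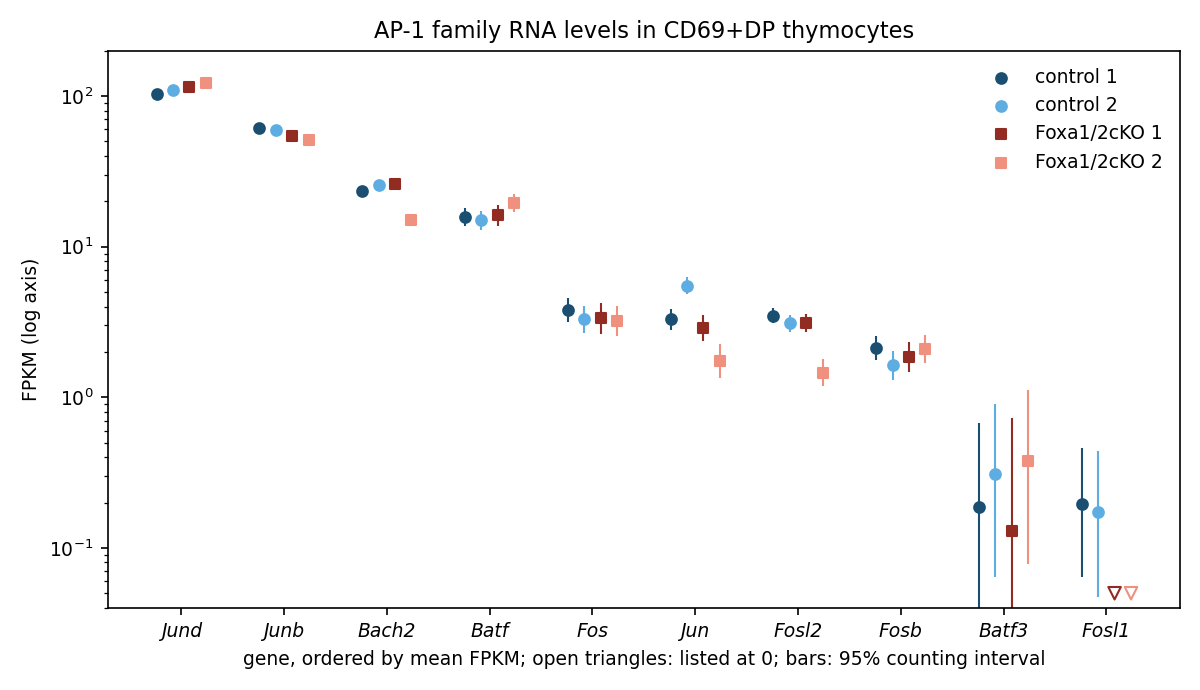
FPKM of each AP-1 member (log axis) in the 2 control samples (circles) and the 2 Foxa1/2cKO samples (squares), ordered by mean level, with bars for the 95% counting interval of the reads and open triangles for Fosl1 listed at 0. Jund and Junb stand highest in every sample, and Jun, Junb, Fos, Fosl2 and Bach2 each have their lowest value in Foxa1/2cKO 2.

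For the comparison of the groups, 8 of the 10 members passed the filter on low values (1 FPKM or more in 2 or more samples) and were tested with limma on log2(FPKM + 1) among 10776 genes, and Fosl1 and Batf3 were not. None of the 8 passed an adjusted p (limma, Benjamini-Hochberg) of 0.05, and 0 of 8 had an unadjusted p under 0.05. Over all tested genes the same limits were passed by 0.00928% (1 gene) and 4.55% (2.39% higher and 2.15% lower in Foxa1/2cKO). With limma-voom on the recovered reads the members also gave 0 calls by either limit, where 5.21% of all tested genes had an unadjusted p under 0.05. Fitted differences were negative for 5 members and positive for 3, and their median was -0.14 on the log2 scale, beside 0.01 for all tested genes. The samples of the groups did not overlap for 4 of the 8 tested members, beside a background of 36.7% of tested genes. In 2 of these 4 (Jund and Batf) both Foxa1/2cKO samples were above both controls, a pattern of 18.9% of tested genes, and in the other 2 (Jun and Junb) both were below, a pattern of 17.8%. Fold changes on this scale understate the change of genes near 1 FPKM. With 2 samples per group an exact two-sided permutation test cannot give a p below 0.333. The limma p-values rest on the spread between these samples within each group, drawn toward a trend over all tested genes. Of the degrees of freedom, 2.69 were prior and 2 residual.

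**Figure D2:**
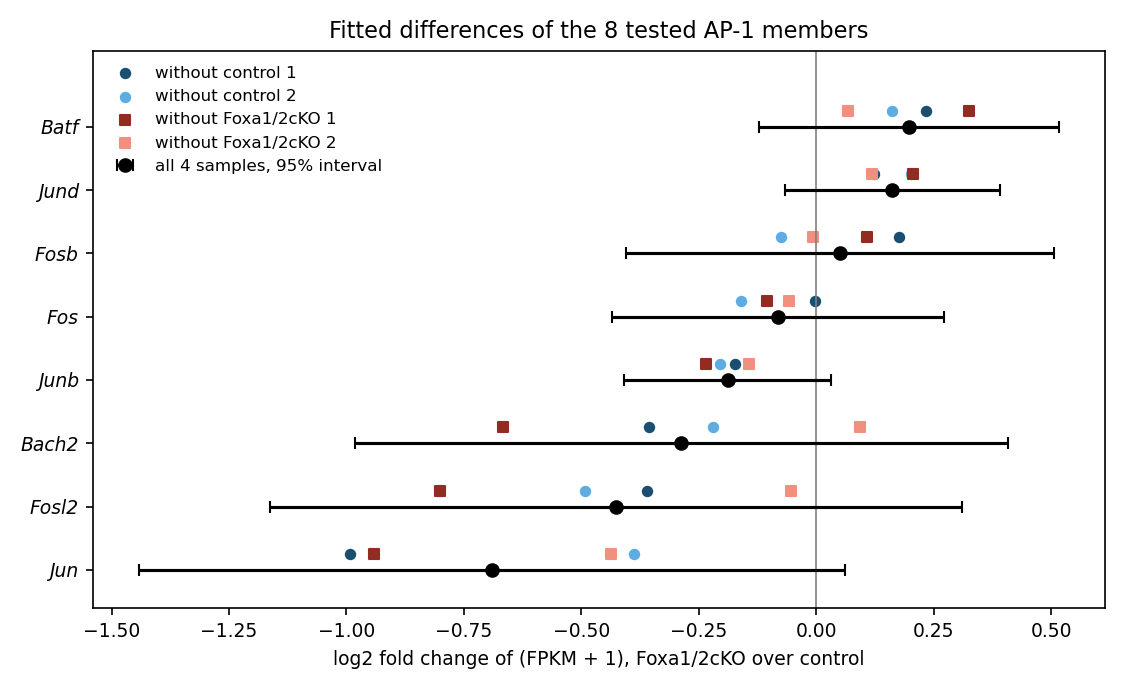
Fitted log2 fold change of (FPKM + 1), Foxa1/2cKO over control, for the 8 tested AP-1 members, with the 95% interval of the fit on all 4 samples (black) and the estimate when each sample is left out (coloured). All 8 intervals cross 0, and the estimates of Jun, Fosl2 and Bach2 move most when a Foxa1/2cKO sample is left out.

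Among the Jun proteins, the constitutive member Jund carried most of the RNA. Jund, a Jun protein present in resting cells, stood at 103.5 and 109 FPKM in controls and at 116 and 123 FPKM in Foxa1/2cKO, from at least 3593 reads a sample. Both Foxa1/2cKO values were above both control values, by a narrow margin. The means were 107 ± 4.21 and 119 ± 5.16 FPKM (SD, n = 2 each). In limma the difference was 0.16 ± 0.09 on the log2 scale (SE, adjusted p = 0.863).

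Junb, an inducible member that is often a weaker activator than Jun, had 61.2 and 59.9 FPKM in controls and 54.7 and 51.3 FPKM in Foxa1/2cKO. The controls lay close together and both were above both Foxa1/2cKO samples. Its mean was 60.6 ± 0.913 FPKM in controls and 53.0 ± 2.39 FPKM in Foxa1/2cKO (SD, n = 2 each). In limma its difference of -0.19 ± 0.08 on the log2 scale (SE) had an unadjusted p of 0.0783 and an adjusted p of 0.863, and its 95% interval ran from -0.41 to 0.03.

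Jun (c-Jun), the founding member and a target of JNK phosphorylation, had the widest spread of the 8 tested members, 3.15-fold from lowest to highest. Its level was 3.29 and 5.52 FPKM in controls and 2.91 and 1.75 FPKM in Foxa1/2cKO, from 157, 239, 100 and 62 reads. Both Foxa1/2cKO samples were below both controls, but control 1 and Foxa1/2cKO 1 were close, with counting intervals of 2.80 to 3.85 and 2.36 to 3.53 FPKM that overlapped. The controls themselves differed 1.68-fold. Jun had the largest fitted difference of the members, larger in size than that of 98.4% of tested genes, at -0.69 ± 0.29 (log2 fold change, SE). Its 95% interval ran from -1.44 to 0.06, and the limma p was 0.0642 before and 0.863 after adjustment. Without Foxa1/2cKO 2 the log2 fold change was -0.44, and without control 2 it was -0.39.

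The summed RNA of the Jun family differed little, at 168 and 175 FPKM in controls and 173 and 176 FPKM in Foxa1/2cKO. Within that sum, Jund made up 61.6% and 62.6% in controls and 66.7% and 69.8% in Foxa1/2cKO. The ratio of Jund to Junb, which does not depend on how samples are scaled, was 1.69 and 1.83 in controls and 2.11 and 2.39 in Foxa1/2cKO, with means of 1.76 ± 0.0960 and 2.25 ± 0.199 (SD, n = 2 each). The groups did not overlap in this ratio. That follows from Jund being higher and Junb lower in both Foxa1/2cKO samples, and it adds no separate observation. The ratio was chosen after the values of both genes were seen and was not tested.

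**Figure D3:**
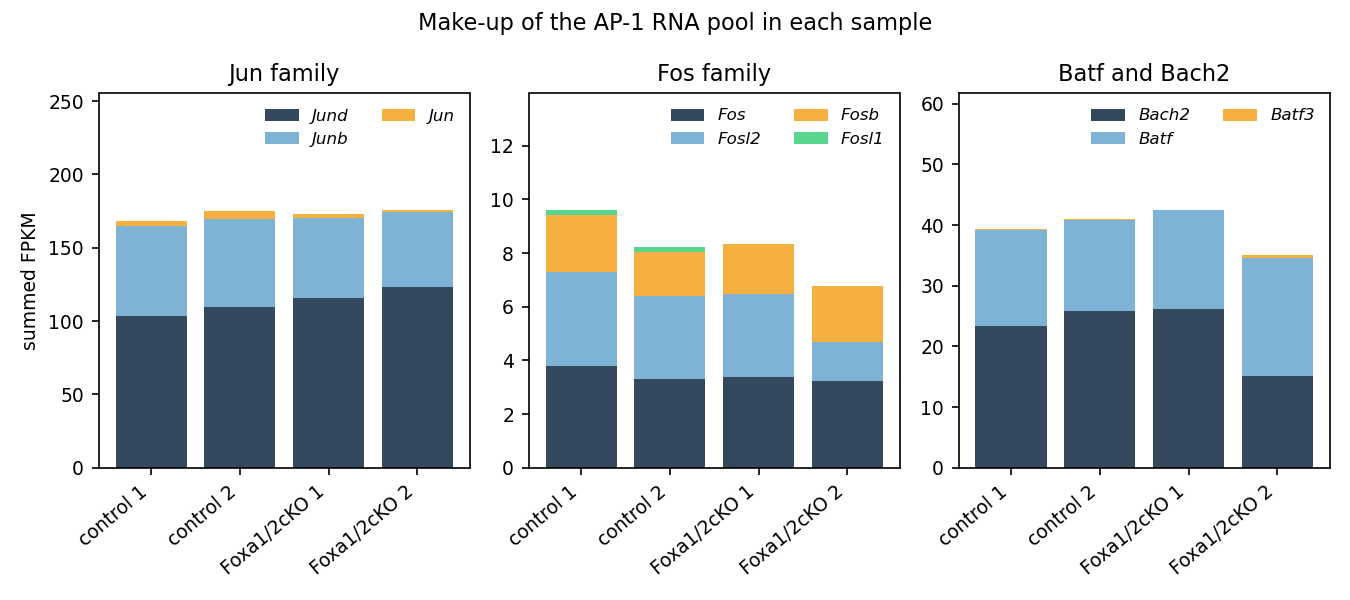
Summed FPKM of the Jun family, of the Fos family and of Batf, Batf3 and Bach2 in each of the 4 samples, with stacked colours for the members and a separate vertical scale in each panel. The Jun family sum stays between 168 and 176 FPKM while the Jund part grows from 61.6% to 69.8%, and the Fos family sum is lowest in Foxa1/2cKO 2.

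The Fos family was low beside the Jun family. Its 4 members summed to 9.62 and 8.21 FPKM in controls and to 8.35 and 6.79 FPKM in Foxa1/2cKO, and the Jun family sum was 17.5 to 25.9 times as large. The Foxa1/2cKO 1 value lay between the controls and the Foxa1/2cKO 2 value below all others.

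Fos (c-Fos), an immediate early gene whose RNA is short lived after a signal, had 3.80 and 3.31 FPKM in controls and 3.36 and 3.23 FPKM in Foxa1/2cKO. The groups overlapped and the whole range was 1.18-fold. Fosb, another inducible member, had 2.14 and 1.64 FPKM in controls and 1.86 and 2.10 FPKM in Foxa1/2cKO, with both Foxa1/2cKO values inside the control range. The log2 fold changes were -0.08 ± 0.13 for Fos and 0.05 ± 0.17 for Fosb (SE, limma adjusted p = 0.913 and 0.964). The 95% intervals, -0.43 to 0.27 and -0.40 to 0.50, leave room for a modest difference either way.

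Fosl2 (Fra-2), a Fos-related protein that lacks the strong activation domain of Fos, separated the Foxa1/2cKO samples from each other rather than the groups. It was at 3.49 and 3.09 FPKM in controls and at 3.13 and 1.46 FPKM in Foxa1/2cKO, from 306, 246, 198 and 95 reads. Foxa1/2cKO 1 lay between the controls, and Foxa1/2cKO 2 had 0.467 times its level, with counting intervals of 1.18 to 1.79 and 2.71 to 3.60 FPKM that did not overlap. The log2 fold change was -0.43 ± 0.28 (SE, limma adjusted p = 0.863), and it was -0.05 without Foxa1/2cKO 2 and -0.80 without Foxa1/2cKO 1. The Fosl2 share of the Fos family was 36.2%, 37.7% and 37.4% in control 1, control 2 and Foxa1/2cKO 1 and 21.5% in Foxa1/2cKO 2.

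Fosl1 (Fra-1), the other Fos-related member, was read 5 and 4 times in controls (0.196 and 0.173 FPKM) and not at all in the Foxa1/2cKO samples. A count of 0 allows up to 3 reads, or 0.163 and 0.159 FPKM in these samples. These limits cover counting error only, and the upper bounds of the exact Poisson intervals for 0 reads lay above the control mean of 0.184 FPKM. No fold is given, and these few reads were not tested.

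Batf, which pairs with Jun proteins and with Irf4 on composite sites, had 15.8 and 15.0 FPKM in controls and 16.2 and 19.5 FPKM in Foxa1/2cKO. Both Foxa1/2cKO samples were above both controls, Foxa1/2cKO 1 only just, and only 158 to 214 reads lay behind each value. The means were 15.4 ± 0.582 and 17.9 ± 2.37 FPKM (SD, n = 2 each). In limma the difference was 0.20 ± 0.12 on the log2 scale (SE, adjusted p = 0.863), and leaving out Foxa1/2cKO 2 brought it to 0.07. Batf3, which is best known from cross-presenting dendritic cells, was at 0.188, 0.310, 0.130 and 0.380 FPKM in control 1, control 2, Foxa1/2cKO 1 and Foxa1/2cKO 2, from at most 3 reads a sample, and no fold is given.

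Bach2, the repressor, had 23.4 and 25.8 FPKM in controls and 26.2 and 15.1 FPKM in Foxa1/2cKO, from at least 1421 reads a sample. Foxa1/2cKO 1 was the highest of the 4 and Foxa1/2cKO 2 the lowest, so the groups overlapped fully. The gap between the Foxa1/2cKO samples, 0.575 times, was far outside their counting intervals of 25.2 to 27.3 and 14.3 to 15.9 FPKM. The log2 fold change was -0.29 ± 0.26 (SE, limma adjusted p = 0.868) with all samples, 0.09 without Foxa1/2cKO 2 and -0.67 without Foxa1/2cKO 1. The ratio of Bach2 to Batf was 1.48, 1.72 and 1.62 in control 1, control 2 and Foxa1/2cKO 1 and 0.772 in Foxa1/2cKO 2.

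Over all members the summed RNA was nearly constant, at 217 and 224 FPKM in controls and 224 and 218 FPKM in Foxa1/2cKO. Jund and Junb together made up 75.9% and 75.6% of it in controls and 76.0% and 80.0% in Foxa1/2cKO. In bulk RNA, fewer cells of a type and less RNA per cell cannot be told apart.

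How far the members rest on Foxa1/2cKO 2 was measured by leaving out each sample. All 8 tested members lay farther from the control mean in Foxa1/2cKO 2 than in Foxa1/2cKO 1, as 65.1% of tested genes did. With Foxa1/2cKO 2 as the lone knockout sample, assumed to vary like the controls, 6 of the 8 members had a limma adjusted p under 0.05, beside a background of 25.4% of 10619 genes, and the same number had an unadjusted p under 0.05, beside 40.1%. The members called were Jun, Junb, Fosl2 and Bach2 on the lower side and Jund and Batf on the higher side, with adjusted p from 0.00381 for Bach2 to 0.0488 for Jund (limma, Benjamini-Hochberg). With Foxa1/2cKO 1 as the lone knockout sample, 0 of 8 were called, beside 0.224% of 10705 genes, and 1 of 8 had an unadjusted p under 0.05, beside 17.7%. Those 6 calls therefore describe 1 library against the controls. Without Foxa1/2cKO 2 the signs of Jun, Junb, Jund, Fos, Fosl2 and Batf were the same as with it, and those of Bach2 and Fosb were not (0.09 and -0.01 against -0.29 and 0.05).

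Marker lists of other cells and states moved with the same sample. The 5 cycling genes (5 of 5 tested) summed to 345 and 362 FPKM in controls and to 414 and 128 FPKM in Foxa1/2cKO, with Cdk1 and Ccnb1, which drive entry into mitosis, at log2 fold changes of -0.68 and -0.57. Without Foxa1/2cKO 2 these were -0.04 for Cdk1 and 0.11 for Ccnb1, so both rested on that sample. The 5 markers of mature single-positive cells (5 of 5 tested) summed to 228 and 255 FPKM in controls and to 261 and 174 FPKM in Foxa1/2cKO. Fosl2, Bach2 and both of these sums were thus lowest in Foxa1/2cKO 2 and within or above the control range in Foxa1/2cKO 1. Within the mature list, Ccr7, a chemokine receptor that guides cells to the medulla, had a log2 fold change of -0.57, and of -0.0011 without Foxa1/2cKO 2.

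Markers of B cells, which express Bach2, were present in every sample, with 5 of 5 tested and sums of 75.6 and 50.3 FPKM in controls and 103.5 and 54.0 FPKM in Foxa1/2cKO. Their highest sum was in Foxa1/2cKO 1, where Bach2 was also highest, but the control with the lower B cell sum had the higher Bach2 level. The 2 of them with the smallest p, Cd79b and Pax5, had log2 fold changes of 0.20 and 0.31, which were 0.41 and 0.74 without Foxa1/2cKO 2 and -0.02 and -0.12 without Foxa1/2cKO 1. The myeloid markers (4 of 5 tested) summed to 20.8 and 12.6 FPKM in controls and to 20.98 and 10.6 FPKM in Foxa1/2cKO, with Itgax at 0.25 and Csf1r at -0.33 (0.39 and 0.13 without Foxa1/2cKO 2). Thymic epithelial markers (1 of 4 tested, Epcam, at 0.27) summed to at most 4.15 FPKM, and 4 of 5 erythroid markers were listed at 0. None of these 4 lists had a gene with an unadjusted p under 0.05, nor did the cycling or double-positive lists, in which Cd8b1 and Cd4 had the smallest p at log2 fold changes of 0.42 and 0.17 (0.15 and -0.01 without Foxa1/2cKO 2). The part of these cells and states in the member values was not tested.

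**Figure D4:**
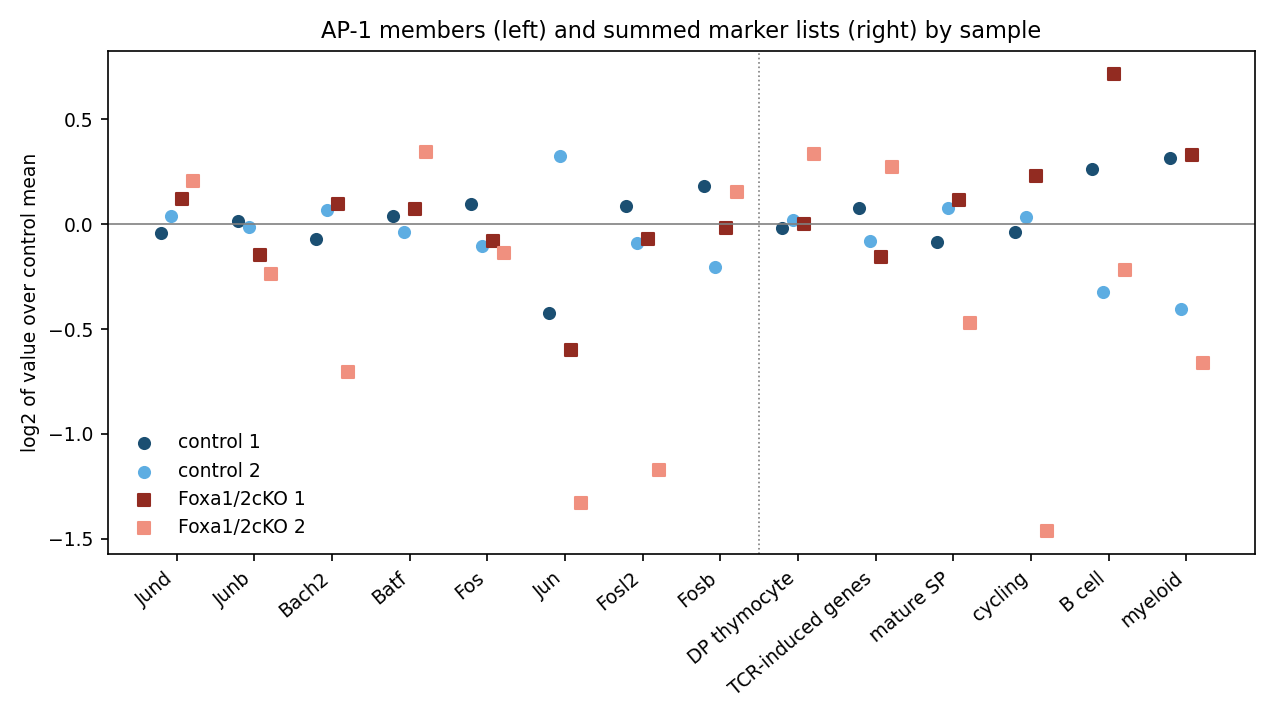
log2 of each sample's value over the control mean, for the 8 tested AP-1 members (left of the dotted line) and for summed marker lists (right), with circles for controls and squares for Foxa1/2cKO. Jun, Junb, Fos, Fosl2, Bach2 and the cycling, mature single-positive and myeloid sums are lowest in Foxa1/2cKO 2. Jund, Batf and the double-positive and TCR-induced sums are highest there. Genes of the TCR-induced list differed, and Cd5 had its highest value (732 FPKM) and Myc its lowest (20.7 FPKM) in Foxa1/2cKO 2.

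Fos and Jun RNA also rises when cells are dissociated or stressed. Of 20 such genes fixed besides the members, 15 were tested, and their sum was 1375 and 1226 FPKM in controls and 1196 and 1452 FPKM in Foxa1/2cKO, so the groups overlapped. None passed adjustment in limma and 3 had an unadjusted p under 0.05, all lower in Foxa1/2cKO. Among them were Hsph1, a heat shock chaperone (log2 fold change -0.36), and Dusp1 (-0.39), beside a list median of -0.05. The background was 4.55% of tested genes, with 2.15% lower in Foxa1/2cKO. The count of 3 changed whichever sample was left out. For Hsph1 and Dusp1 the log2 fold changes were -0.36 and -0.53 without Foxa1/2cKO 1, and -0.35 and -0.25 without Foxa1/2cKO 2. The part of these genes in the level of Jun was not tested.

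The genes around AP-1 were followed in 6 lists, with 90 genes in all, of which 82 were tested. In limma 0 of the 82 passed adjustment, and 4 (4.88%) had an unadjusted p under 0.05, beside the background of 4.55%. Their median log2 fold change was 0.04.

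Upstream, the 24 genes of the route from the TCR to the MAP kinases (among them Rasgrp1, Ras, Raf and the ERK, JNK and p38 kinases) were all tested, and 0 had an unadjusted p under 0.05 in either direction. Their median was 0.04. The smallest p belonged to Map2k3, a kinase that activates p38, at 23.6 and 24.0 FPKM in controls and 21.5 and 20.8 FPKM in Foxa1/2cKO (log2 fold change -0.16), and to Braf, a kinase above ERK, at 0.21. In both Foxa1/2cKO samples Map2k3 lay below the controls.

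Of 10 factors that bind or co-activate at Fos and Jun promoters, such as Srf and its partners, 10 were tested and 1 had an unadjusted p under 0.05. Elk4, an Ets factor that acts with Srf at serum response elements, was at 42.7 and 33.5 FPKM in controls and 48.4 and 55.5 FPKM in Foxa1/2cKO, with a log2 fold change of 0.45 ± 0.15 (SE, limma adjusted p = 0.863). Both Foxa1/2cKO values were above both controls, and the log2 fold change was 0.35 without Foxa1/2cKO 2. Mef2a, a MADS-box factor that binds the Jun promoter, had a log2 fold change of 0.17, and the list median was 0.12.

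Among 7 factors that cooperate with AP-1 on DNA, all tested, 1 had an unadjusted p under 0.05. Nfatc3, the NFAT member most associated with double-positive thymocytes, was at 88.1 and 92.8 FPKM in controls and at 110 and 109 FPKM in Foxa1/2cKO. The groups were separated and each was tight, with a log2 fold change of 0.27 ± 0.08 (SE, limma adjusted p = 0.863), and of 0.28 without Foxa1/2cKO 2. Runx1 was at -0.17, and the list median was 0.14. Irf4, the partner of Batf, which is named here after its values were seen, was at 7.97 and 8.01 FPKM in controls and 8.84 and 3.87 FPKM in Foxa1/2cKO, and so was lowest in Foxa1/2cKO 2, where Batf was highest.

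Of 4 genes for the turnover of Jun proteins, 4 were tested and 1 had an unadjusted p under 0.05. Itch, a ubiquitin ligase for Jun and Junb, was at 22.0 and 23.8 FPKM in controls and at 27.9 and 28.7 FPKM in Foxa1/2cKO, with a log2 fold change of 0.30 ± 0.09 (SE, limma adjusted p = 0.863). Both Foxa1/2cKO values exceeded both controls, and the log2 fold change was 0.28 without Foxa1/2cKO 2. Rfwd2 (Cop1), another ligase for Jun, had a log2 fold change of 0.23, and the list median was 0.20. RNA says nothing of the level of the proteins.

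Of 26 other bZIP genes that pair or compete with AP-1, 19 were tested, and 0 had an unadjusted p under 0.05, with a median of 0.03. The smallest p belonged to Creb1 (0.12) and Cebpb (0.33, from at most 34 reads a sample). Downstream, 19 of 20 genes induced by TCR signals were tested, and 1 had an unadjusted p under 0.05. Dusp1, a phosphatase that switches MAP kinases off, was at 15.6 and 15.0 FPKM in controls and at 12.7 and 10.3 FPKM in Foxa1/2cKO, for a log2 fold change of -0.39 ± 0.13 (SE, limma adjusted p = 0.863), which was -0.25 without Foxa1/2cKO 2. Zfp36, an RNA-decay factor, was at -0.27. The list median was 0.00 and the sums, 1686 and 1516 FPKM in controls and 1436 and 1934 FPKM in Foxa1/2cKO, overlapped between the groups.

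**Figure D5:**
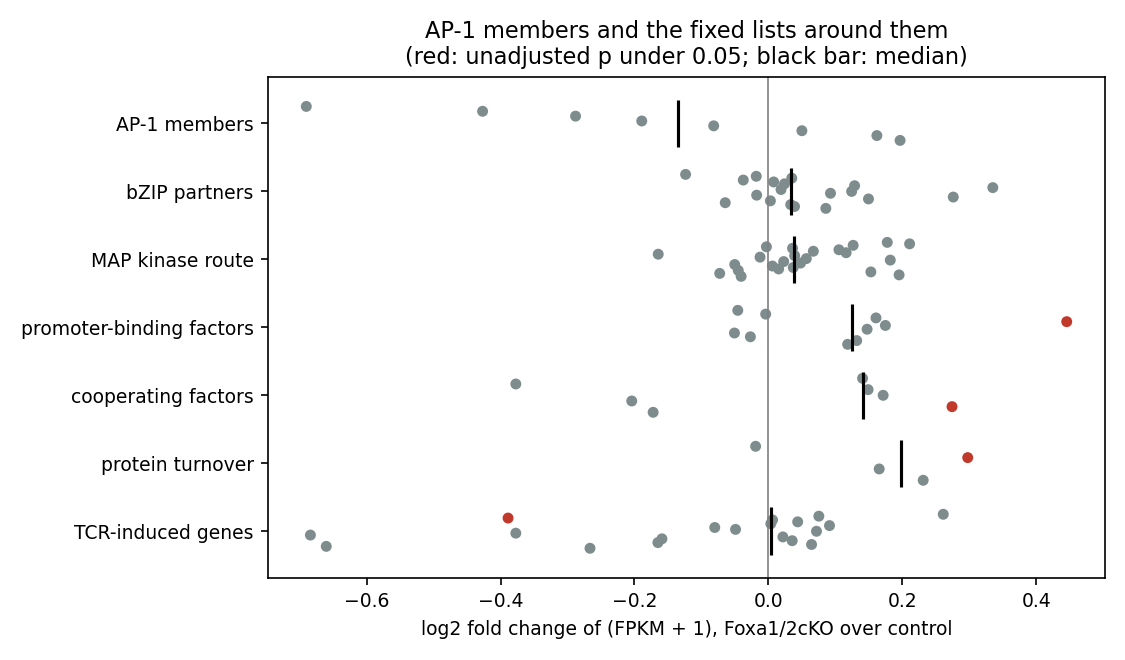
log2 fold change of (FPKM + 1), Foxa1/2cKO over control, of every tested gene among the AP-1 members and in the 6 lists around them, with black bars for list medians and red points for an unadjusted p under 0.05. The 4 red points are Elk4, Nfatc3 and Itch on the higher side and Dusp1 on the lower side, and no AP-1 member is red.

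The genes most like Jun were sought by profile, as the smallest Euclidean distance between mean-centred log2(FPKM + 1) values over the 4 samples. Israa was nearest at a distance of 0.121, with 1.26 and 2.22 FPKM in controls and 1.003 and 0.297 FPKM in Foxa1/2cKO. Sox13, a factor tied to the gamma-delta T-cell lineage, followed at 0.173, with 6.21 and 8.87 FPKM in controls and 4.96 and 2.91 FPKM in Foxa1/2cKO. Fam163b was the third, at 0.183. Like Jun, these genes were highest in control 2 and lowest in Foxa1/2cKO 2, which follows from choosing them by these same values.

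On GRCm38, Jun (chr4:95049036-95052222, minus strand), Junb (chr8:84976909-84978748, minus strand) and Jund (chr8:70697739-70700616, plus strand) are single-exon genes. Fos (chr12:85473890-85477274) and Batf (chr12:85686720-85709087) lie near each other on the plus strand of the same chromosome, with 4 and 3 exons. Bach2 (chr4:32238413-32586109, plus strand) has 7 exons, and Fosl2 (chr5:32136472-32157840, plus strand), Fosb (chr7:19302696-19310118, minus strand), Fosl1 (chr19:5447698-5455938, plus strand) and Batf3 (chr1:191098414-191108943, plus strand) have 4 each. Exons of Jun, Junb, Jund, Fosl1 and Bach2 overlap exons of a gene on the other strand (Junos, Prdx2, Gm11175, Ccdc85b and Bach2os). The strand setting of the gene counts was not given in the sources used here, so reads of these pairs cannot be told apart with certainty.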

How the data were processed

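CD69+DP thymocytes were FACS sorted and their RNA was sequenced on an Illumina NextSeq 500, with 2 samples per genotype. Alignment by the authors was to mm10 (RefSeq annotation), and reads per gene were taken with HTSeq (union mode). The submitters' processing notes list TopHat, Picard and DESeq2. The deposited table gives FPKM for each gene in each sample, made by the authors with a tool that is not given in the sources used here. From the values, samples had been scaled to each other. Steps between the values gave back whole reads for 100% of the 16069 genes above 0 (tolerance 0.005), with 1.35% of genes over 50 reads multiplied to reach a whole gene length. Recovered reads were 14609160, 13184268, 10488639 and 11366333 in control 1, control 2, Foxa1/2cKO 1 and Foxa1/2cKO 2. Of the symbols, 27 had become dates and were left as listed.

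Since FPKM are not counts, limma 3.58.1 (R 4.3.3) was run on log2(FPKM + 1) with a mean-variance trend, no block, and Benjamini-Hochberg adjustment at 0.05 over all genes at 1 FPKM or more in 2 or more samples. Scripts were tested on simulated data. Alternatives were another pseudocount, filter, scaling, variance model and threshold, limma-voom on the recovered reads, a replicate block, and leaving out each sample. Counting intervals are exact Poisson at 95% and cover counting error only. The members and lists were chosen with earlier results of these data known. Named genes were all members, Foxa1 and Foxa2, from each list up to 2 tested genes of smallest p, and the 3 genes with the profile nearest to that of the member with the largest fold change. Other genes are named beside these after their values were seen, and some genes of the lists are not reported here. Motifs were searched in RefSeq promoter windows of GRCm38.p6, and exon overlaps came from GENCODE M21.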

Additional observations from a re-analysis of the deposited data

How the results depend on the processing

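Over 12 alternatives for each of the 8 tested members, 87 of 96 values were the same in direction and call, 6 passed the threshold and 3 changed sign. All 6 arose without Foxa1/2cKO 1 and all 3 when a sample was left out. Changing the filter, dropping the mean-variance trend or adding the replicate block cannot move a member's fold change in this design. The directions under these settings were fixed in advance, and only the calls could differ. Leaving out 1 sample gave log2 fold changes of -0.99 to -0.39 for Jun, -0.23 to -0.14 for Junb, 0.12 to 0.21 for Jund, -0.16 to -0.0040 for Fos, -0.076 to 0.18 for Fosb, -0.80 to -0.054 for Fosl2, 0.068 to 0.33 for Batf and -0.67 to 0.092 for Bach2. The sign changes were Bach2 without Foxa1/2cKO 2 (0.092) and Fosb without control 2 (-0.076) or Foxa1/2cKO 2 (-0.0073). Over all genes, limma gave 1 adjusted call, and 0 with a pseudocount of 0.1, no filter, an FPKM of at least 1 in all samples, scaling to all recovered reads or limma-voom on the recovered reads (244 higher and 317 lower at an unadjusted p under 0.05). Leaving out 1 sample gave 0 to 2695 adjusted calls. The 4 genes of the 6 lists with an unadjusted p under 0.05 became 2 under the replicate block and 0 to 35 when 1 sample was left out, with 35 without Foxa1/2cKO 1 and 17 without Foxa1/2cKO 2. Over all tested genes such calls also rose when either Foxa1/2cKO sample was left out and fell when either control was left out. The shifts were therefore not particular to these lists, and their cause was not tested. The study used littermates without Cre as controls and describes sorts that held 2 mice of each genotype. Whether same-numbered samples shared a litter or a sort was not given in the sources used here. The correlation of their deviations, -0.06, cannot decide it. The block left 1 adjusted call and no member called, and unadjusted calls went from 258 higher and 232 lower to 165 and 213. Scaling moved the median of all genes by at most 0.03. Depth limits Fosl1 and Batf3 most, since no sample held more than 5 reads of either.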
